A study of Homo sapiens with 38 samples.

Results

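The RNA of 47 genes for mRNA export factors and nuclear pore proteins was followed in the nucleus and the cytoplasm of HCT116 cells, a human colorectal carcinoma line. The genes were chosen by name, as components of the TREX, cap-binding, export receptor and nucleoporin machinery, and all 47 were found among the 58425 genes with an annotated transcript. They were sorted into 12 groups by role and held 552 transcripts. All 47 passed the filter on low counts in every comparison between genotypes and between fractions, and the lowest estimated read number of a member in any library was 141, for NXT1. RNA-seq had been carried out on wild-type (WT) cells and on 4 lines edited with CRISPR at genes for Argonaute proteins, which carry microRNAs. One line lacked AGO1, another AGO2, a further line both of these (AGO1/2), and the last AGO3 as well (AGO1/2/3). Nuclear and cytoplasmic total RNA gave 10 groups of 3 libraries. All lines grew in the same medium, the labels name no treatment, and the replicates were different passages of a line. Every genotype was represented by 1 line, with WT cells at passages 27 to 29 and the edited lines at passages 6 to 14. Clone, passage and genotype therefore cannot be told apart, and the p-values measure only the spread between passages.

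An mRNA leaves the nucleus in steps that these proteins carry out in turn. The cap-binding complex and TREX, which contains the THO subunits, the RNA helicases DDX39A and DDX39B and the adaptor ALYREF, load the spliced mRNA with its receptor, the NXF1-NXT1 dimer. The mRNA passes the nuclear pore, a ring of nucleoporins with a basket on the nuclear side and filaments on the cytoplasmic side, where GLE1 and the DDX19 helicases strip off the export factors. Exportins such as XPO1 carry other cargo with the GTPase RAN, whose state is set by RCC1 in the nucleus and by RANGAP1 and RANBP1 in the cytoplasm.

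Several members also make transcripts that keep an intron, and the splice sites of 3 such introns are shown because the levels of transcripts that hold them are given later. The sequences were read 5′ to 3′ from GRCh38 with GENCODE release 44, with 9 exon bases and 19 intron bases at each site and the terminal dinucleotides of the intron in capitals. NXF1-211 (4128 nt) holds the whole of intron 10 of the 20 introns of NXF1-201, at chr11:62798576-62800376 on the minus strand (1801 bases). A transcript that keeps this intron is known for leaving the nucleus through a constitutive transport element.
NXF1 intron 10, 5′ splice site: ctacatcagGTcagttgtagcctgtgtc
NXF1 intron 10, 3′ splice site: tctgtcccgttcttgacAGcgccattcg
DDX39B-215 (4027 nt) holds intron 6 of the 10 introns of DDX39B-202, at chr6:31532912-31535366 on the minus strand (2455 bases).
DDX39B intron 6, 5′ splice site: atgcaagatGTaaatacccttctacctt
DDX39B intron 6, 3′ splice site: cccccttcctcccccccAGccaatggag
XPOT-206 (1321 nt) holds intron 13 of the 24 introns of XPOT-201, at chr12:64425183-64425337 on the plus strand (155 bases).
XPOT intron 13, 5′ splice site: atgcgaactGTaagtatactggagataa
XPOT intron 13, 3′ splice site: taactttttcctgatctAGctggtaaca
Each intron begins with GT and ends with AG, the pair that the major spliceosome uses.

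The nuclear libraries held 20431557 to 54097984 estimated reads and the cytoplasmic libraries 39476205 to 79731793, with WT the shallowest group of both fractions. AGO1 RNA in the nucleus was 11.2 ± 1.7 TPM (SD, n = 3) in WT cells and 2.65 to 3.78 TPM on average in the 3 lines edited at AGO1. AGO2 RNA was 53 TPM in WT nuclei and 26.1 to 34.3 TPM in the 3 lines edited at AGO2, and AGO3 RNA in the nucleus was as high in the AGO1/2/3 line (14.7 TPM) as in the AGO1/2 line (15 TPM), so that RNA level does not by itself check an edit at AGO2 or AGO3. The WT libraries of passage 29 stood apart. Summed over the 47 members, they held 1949 TPM in the nucleus against 2674 and 2686 TPM at passages 27 and 28, and 1767 TPM in the cytoplasm against 2459 and 2332 TPM. Counts of changed members are therefore given without them as well. Nuclear GAPDH, a cytoplasmic mRNA used as a fractionation marker, was higher than in WT by 0.60, 0.60, 1.11 and 0.91 (log2, edgeR) in the lines lacking AGO1, AGO2, both, and all 3 proteins, and nuclear MALAT1, a nuclear RNA, averaged 3040 TPM in WT and 1310 to 1810 TPM in the knockout lines. These markers moved with the nuclear results below, and their part in those results was not tested. Of 7 epithelial markers 6 passed the count filter (VIL1 was near 0), and the summed nuclear level of the 7 was 1168 to 1279 TPM in WT and 2044 to 2801 TPM in the AGO1/2 and AGO1/2/3 lines. The markers did not move alike: in the nuclei of each of these lines 4 of the 6 were called higher and 2 lower. In the cytoplasm the sum was 1192 to 1358 TPM in WT, 819.6 to 1001 TPM in AGO1/2 and 1089 to 1343 TPM in AGO1/2/3 cells. The summed level of 6 blood cell markers was 0.531 to 1.26 TPM in WT nuclei, 4.64 to 5.36 TPM in AGO1/2 and 3.3 to 4.93 TPM in AGO1/2/3 nuclei, and in the cytoplasm it was 0.633 to 3 TPM, 3.67 to 5.95 TPM and 3.72 to 5.12 TPM in the same order. The 2 of them that could be tested, CD68 and LYZ, were called higher in both fractions of these lines, and their part in the results was not tested. The summed level of 6 mesenchymal markers was at most 6.36 TPM, with PTPRC, CD3E and DCN at or near 0. In bulk RNA, fewer cells that express a gene and less RNA per cell cannot be told apart.

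The members differed widely in level, compared here in TPM, which corrects for transcript length. RAN was highest in every group, with 353 ± 80 TPM in WT nuclei and 598 ± 120 TPM in WT cytoplasm (n = 3), and its partner RANBP1 followed with 208 ± 39.5 TPM in the cytoplasm. XPO1, the exportin of leucine-rich export signals, had 177 ± 45.2 TPM in WT nuclei, DDX39B had 135 ± 10.4 TPM and TPR, the main protein of the nuclear basket, had 132 ± 23.5 TPM, and these means lie within 1 SD of XPO1. At the low end NXT1, the small partner of NXF1, had 7.18 ± 2.02 TPM in WT nuclei, and NUP214, of the cytoplasmic filaments, had 5.56 ± 1.12 TPM in WT cytoplasm. The median member stood at 33.6 TPM in WT nuclei and 25.1 TPM in WT cytoplasm. The export receptor NXF1 (25.6 ± 5.82 TPM) lay well below the adaptor ALYREF (95.4 ± 20.4 TPM) in WT nuclei.

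RAN and RANBP1 share sequence with processed pseudogenes, of which none exceeded 3.04 TPM in a library. DDX39B overlaps the readthrough gene ATP6V1G2-DDX39B, which was given up to 55.2 TPM. How reads were divided between DDX39B and that gene, and between the paralogues DDX19A and DDX19B, DDX39A and DDX39B, is uncertain. Related genes were sought only by symbols built on that of a member. Copies under other names, of RANBP2 or any other member, were not looked for.

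The 2 fractions of WT cells were compared to ask where the RNA of each member lay. TPR was the most nuclear member, at 132 TPM in the nucleus and 11.5 TPM in the cytoplasm (log2 nucleus over cytoplasm 2.70 ± 0.15 SE, adjusted p = 8.1e-06, edgeR's quasi-likelihood test with Benjamini-Hochberg adjustment). It was followed by RANBP2, the SUMO ligase of the cytoplasmic filaments (1.13 ± 0.18), the THO subunit THOC1 (1.11 ± 0.15) and the helicase DDX39B (0.91 ± 0.09). At the cytoplasmic end stood the THO subunit THOC7 (-1.66 ± 0.17), NXT1 (-1.45 ± 0.26), RANBP1 (-1.37 ± 0.14) and ALYREF (-1.24 ± 0.18). In all, 6 members were called nuclear and 21 cytoplasmic, where 35.9% and 34.7% of all genes tested were called in those directions, and the member median was -0.32 against -0.02 over all genes. By TPM, which does not rescale the fractions to a common centre, limma instead called 22 members higher in the nucleus and 8 lower (50.9% and 16.5% of all genes), with the median of all genes at 0.33 and that of the members at 0.44, so that the balance of the list reversed. The calls rested on the treatment of the passages. With the passage as a block, since the WT fractions of a passage deviated together, edgeR called 13 members nuclear and 29 cytoplasmic (40.3% and 41.4% of all genes), and without both libraries of passage 29 it called 14 and 28.

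By role, 7 of the 10 THO and TREX members were called cytoplasmic in WT cells and 2, THOC1 and DDX39B, nuclear. Of the 4 members of the RAN cycle 3 were cytoplasmic and none nuclear, while among the 3 proteins of the cytoplasmic filaments RANBP2 and NUP214 were nuclear and NUP88 cytoplasmic. None of the 5 inner-ring members passed the test in either direction, whereas with passage as a block 2 were nuclear and 3 cytoplasmic. Protein-coding transcripts alone gave 13 members of the whole list in each direction. No share of all genes is given for that setting, so whether the members differed from all genes there is not known. THOC1 and DDX39B changed sides when only protein-coding transcripts were counted, THOC1 at -0.65 and DDX39B at -0.95 on the log2 scale, whereas TPR and RANBP2 remained nuclear at 3.13 and 1.58. Across the 47 members the log2 nucleus over cytoplasm in WT had a Spearman correlation of 0.45 with the span of the gene on the chromosome. Across the 39 members with annotated retained-intron transcripts the correlation with the nuclear share of these transcripts was 0.46. Retained-intron transcripts also count in the gene totals that give the log2 difference. The 2 measures of this correlation thus share a part, and no conclusion is drawn from it. The points share the same 6 libraries, and the correlations describe these genes only.

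The difference between the fractions was then set beside that in each knockout line. In AGO1 knockout cells 13 members were nuclear and 24 cytoplasmic (40.8% and 39.3% of all genes), and in AGO2 knockout cells 16 and 26 (40.3% and 40.1%). In AGO1/2 knockout cells 23 were nuclear and 14 cytoplasmic (36.6% and 33.6%), with a member median of 0.20, and in AGO1/2/3 knockout cells 17 and 22 (38.1% and 38.1%). On the TPM scale limma called 26 higher and 9 lower (55.3% and 19.6%), 31 and 9 (60.2% and 17.7%), 44 and 0 (75.3% and 5.23%) and 35 and 5 (63.8% and 13.3%) in the same order, so that the cytoplasmic majority in the AGO1, AGO2 and AGO1/2/3 lines was lost on TPM. By edgeR it was lost in the AGO1/2/3 line as well, with 21 nuclear and 16 cytoplasmic members at a mean count of at least 50 and 21 and 19 from protein-coding transcripts alone. No share of all genes is given for these 2 settings, so whether the members differed from all genes there is not known. TPR ranged from 2.76 to 3.13 in the knockout lines and RANBP2 from 1.15 to 1.66. ALYREF stood at -0.89, -1.0, -0.30 (adjusted p = 0.094, edgeR) and -0.64 in the same order. The AGO1/2 value was called with passage as a block (-0.30), without cytoplasmic knockout passage 11 (-0.49) and without nuclear knockout passage 10 (-0.42). On TPM the AGO1/2 and AGO1/2/3 values turned to 0.69 and 0.01. RANBP1 stood at -1.23, -1.21, -0.81 and -0.93 and NXT1 at -1.24, -1.2, -1.21 and -1.16.

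**Figure D1:**
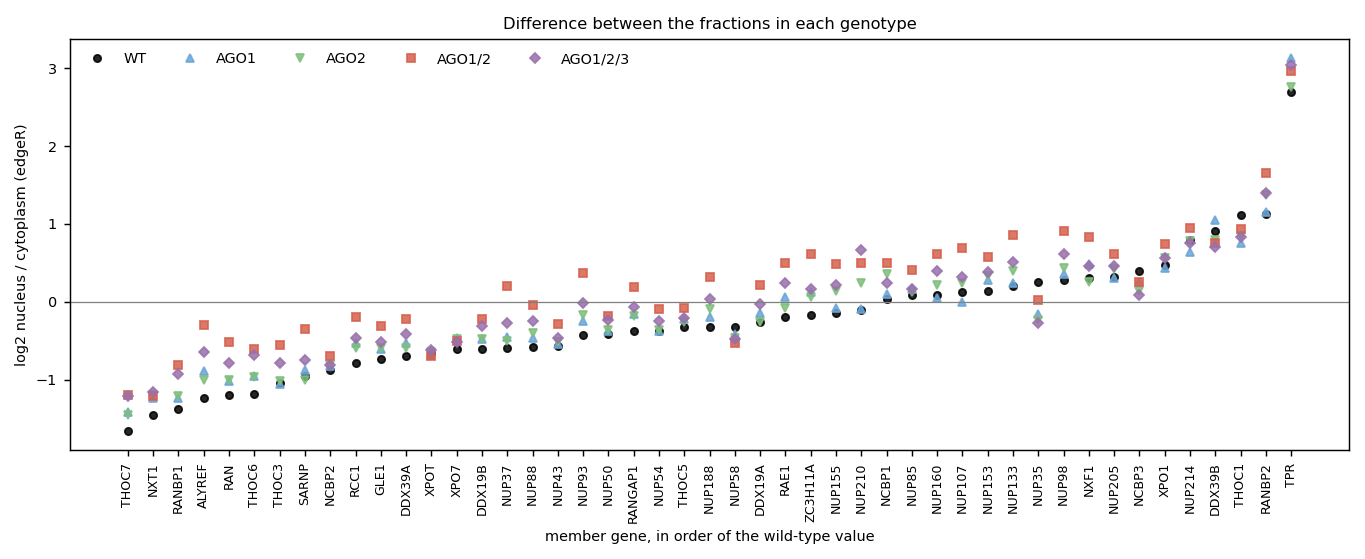
Log2 difference between nucleus and cytoplasm (y axis, edgeR fit of each genotype) for each of the 47 members (x axis, ordered by the WT value), with 1 symbol for each genotype. TPR stands apart at 2.70 to 3.13, and the squares of the AGO1/2 line lie above the WT circles for most members, as for ALYREF (-0.30 against -1.24).

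Intron-retaining transcripts were examined next, as the TPM of annotated retained-intron transcripts against the TPM of protein-coding transcripts of the same gene, tested as a log2 ratio by limma in the 39 members with both kinds and enough signal. The type of a transcript was taken from the annotation. In total RNA of nuclei, intron reads of RNA that is not yet spliced can be assigned to retained-intron transcripts. Their part in the ratios and shares below was not tested. By identifier and version, a transcript that holds a whole intron of the gene's canonical (reference) transcript was listed for 21 of the 47 members. ALYREF, DDX19B, NUP107 and NUP210, named below, were not among these. In WT cells the ratio was higher in the nucleus for all 39 and lower for none, where 84.5% and 1.38% of all genes tested were called in those directions. The member median was 3.88 (log2) against 2.90 over all genes. THOC1 showed the highest value, with retained-intron TPM of 20.9, 23.3 and 22.6 in the 3 WT nuclei against 0.501, 0.635 and 0.311 in the cytoplasm, and a log2 difference of 5.84 ± 0.41 (adjusted p = 1.3e-05, limma). All nuclear values lay far above all cytoplasmic ones. RAN (5.33 ± 0.25), XPOT (5.28 ± 0.58), the tRNA exportin, and NUP107 (5.25 ± 0.24), a scaffold protein of the Y complex, followed. DDX39B differed by 4.58 ± 0.30 and NXF1 by 2.42 ± 0.27. The retained-intron share was 23.1% of the summed TPM for the median member in WT nuclei, with a range from 0.72% in THOC7 to 84.2% in THOC1, and 1.39% in WT cytoplasm. The median nuclear share was 17.8% in AGO1 and 16.9% in AGO2 knockout cells, which were not tested for this ratio.

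In the nuclei of AGO1/2 knockout cells the ratio was lower than in WT in 35 of the 39 members and higher in none, where 69.5% of all genes were lower and 1.01% higher. The member median was -1.27 against -1.04 over all genes, and the median share fell from 23.1% to 9.89%. With all 3 proteins lacking, 30 members were lower and none higher (57.6% and 0.982% of all genes), with medians of -0.87 and -0.77 and a share of 12.8%. Without the nuclear WT library of passage 29 the counts were 34 and 31, and the WT count was 38 without the cytoplasmic one. THOC1 fell by 2.22 on the log2 scale in AGO1/2 knockout cells (adjusted p = 0.0001, limma): its retained-intron TPM was 8.03, 8.06 and 8.61, below all 3 WT libraries, while its protein-coding TPM was 6.39, 7.92 and 6.26 against 5.11, 5.66 and 2.02 in WT, above all 3. Next came ALYREF (-1.93), DDX19B (-1.89) and the cap-binding subunit NCBP2 (-1.80). The lowest values in AGO1/2/3 knockout cells were those of THOC1 (-1.73), NUP188 (-1.57), an inner-ring scaffold protein, RANBP1 (-1.57) and NUP210 (-1.44), which is anchored in the pore membrane. DDX39B fell by 1.34 and 1.03 and NXF1 by 1.40 and 0.51 in the AGO1/2 and AGO1/2/3 lines. The NXF1 call in AGO1/2/3 knockout cells (adjusted p = 0.027, limma) was lost without passage 12 (-0.50) or 14 (-0.46) of that line or without WT passage 27 (-0.43).

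**Figure D2:**
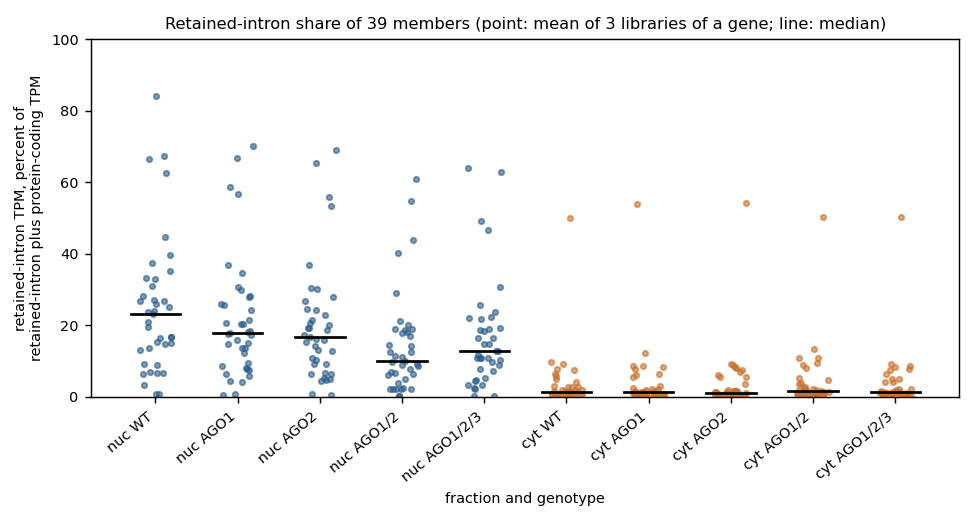
Share of retained-intron TPM in the sum of retained-intron and protein-coding TPM (y axis, percent) for 39 members in the 10 groups of fraction and genotype (x axis). Each point is the mean of 3 libraries of a gene and each line the median member, which lies at 23.1% in WT nuclei, 9.89% in AGO1/2 nuclei and 1.39% in WT cytoplasm.

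The transcripts with the introns shown above moved as follows. DDX39B-215 had 33.1 ± 1.59 TPM (n = 3) in WT nuclei with a lowest library of 32.2 TPM, 17.7 ± 2.05 TPM in AGO1/2 nuclei with a highest library of 19.5 TPM, and 18.7 ± 2.23 TPM in AGO1/2/3 nuclei with a highest library of 21.2 TPM. AGO1 nuclei had 27.5 ± 1.78 and AGO2 nuclei 22.2 ± 0.624 TPM, and no library of the 4 lines reached the WT range. DDX39B-219, which also holds intron 6, had 15.6 TPM in WT nuclei, and its levels in the knockout lines are not given here. DDX39B-201, 1 of 14 protein-coding transcripts of the gene and not the canonical one, went the other way. It rose from 15.1 ± 2.92 TPM in WT to 23.8 ± 2.3 TPM in AGO1/2 and 25.0 ± 0.884 TPM in AGO1/2/3 nuclei without overlap. Its AGO1 (17.5 TPM) and AGO2 libraries (18 TPM) overlapped WT. In the cytoplasm of WT cells DDX39B-215 had 1.02 TPM and DDX39B-201 had 20.1 TPM.

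NXF1-211 had 5.62 ± 1.13 TPM in WT nuclei and 5.75 ± 0.806 TPM in AGO1 nuclei, whose libraries overlapped. It had 3.33 ± 0.142 TPM in AGO2, 3.24 ± 0.0531 TPM in AGO1/2 and 3.02 ± 0.181 TPM in AGO1/2/3 nuclei, and the lowest WT library (4.39 TPM) lay above the highest of these lines (3.47, 3.30 and 3.20 TPM). NXF1-201 had 13.2 ± 3.22 TPM in WT, 21.2 ± 2.53 TPM in AGO1/2 and 15.6 ± 0.821 TPM in AGO1/2/3 nuclei, and only the AGO1/2 libraries lay wholly above WT. NXF1-211 is annotated as protein-coding and was therefore counted on the protein-coding side of the retained-intron ratio of NXF1, although it holds intron 10. RAN-202 (17.0 TPM in WT nuclei), which holds intron 1 of RAN, was counted on that side as well. XPOT-206 had 8.84 ± 2.36 TPM in WT nuclei, 6.12 ± 0.53 TPM in AGO1, 6.09 ± 0.657 TPM in AGO2, 5.15 ± 0.522 TPM in AGO1/2 and 6.58 ± 1.4 TPM in AGO1/2/3 nuclei, and the AGO1/2/3 libraries (up to 8.09 TPM) overlapped WT (from 7.30 TPM). Single transcripts were not tested.

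**Figure D3:**
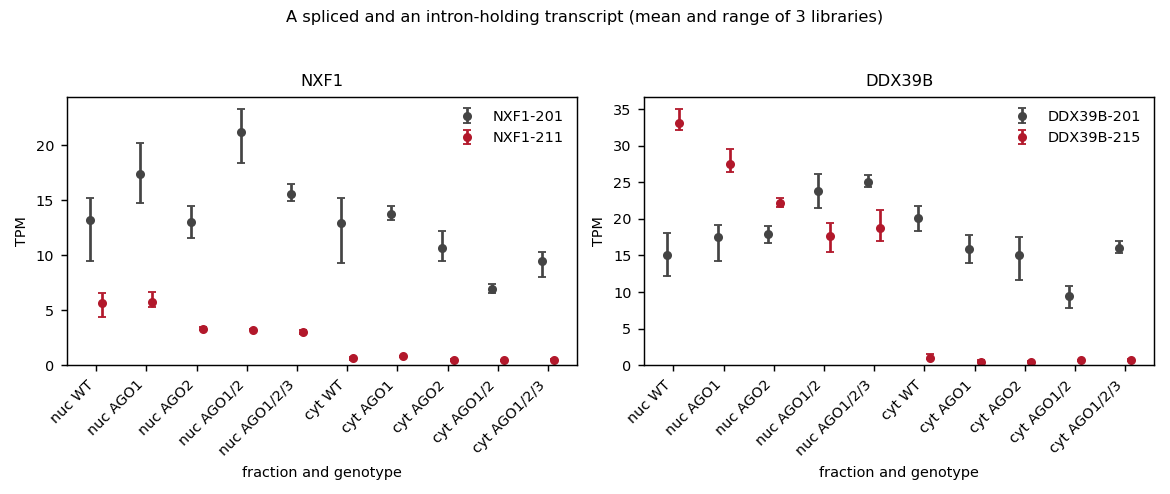
TPM (y axis) of a spliced and an intron-holding transcript of NXF1 (left) and DDX39B (right) in the 10 groups (x axis), with points for the mean and bars for the range of 3 libraries. DDX39B-215 falls from 33.1 TPM in WT nuclei to 17.7 TPM in AGO1/2 nuclei while DDX39B-201 rises from 15.1 to 23.8 TPM, and both intron-holding transcripts are near the axis in the cytoplasm.

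Each knockout line was next compared with WT in nuclear RNA. The values below are CPM (reads scaled to a common library size) after TMM scaling within the fraction, with replicates in the order of their passage. In AGO1/2 knockout cells 26 members (55.3%) rose and 4 (8.51%) fell, where 32.8% of all genes rose and 34.5% fell, and the member median was 0.24 (log2) against -0.06 over all genes. In AGO1/2/3 knockout cells 17 rose and 6 fell (29% and 29.4% of all genes), with a member median of 0.14. In AGO1 knockout cells 20 rose and none fell (14.2% and 15.4% of all genes; median 0.23), with 34 members at an unadjusted p under 0.05 in either direction and DESeq2 calling 18 higher and 0 lower. In AGO2 knockout cells 15 rose and 3 fell (20.1% and 19.8%; median 0.18). The balance depended on the scale. On log2(TPM + 1) the median of all genes shifted to -0.17 (AGO1), -0.17 (AGO2), -0.07 (AGO1/2) and -0.16 (AGO1/2/3), the member medians were -0.04, -0.16, 0.11 and -0.17, and limma called 0 higher and 7 lower (1.91% and 30.5% of all genes), 1 and 8 (3.59% and 33.4%), 14 and 6 (26.1% and 35.1%) and 6 and 16 (14.3% and 39.6%). The direction of the list thus reversed in 3 of the 4 lines. By these medians alone, the members stayed above all genes in the AGO1 and AGO1/2 lines and were level with them in the others. Without WT passage 29 edgeR called 18 higher and 0 lower, 14 and 4, 25 and 7, and 16 and 10 in the same order, and without AGO1 knockout passage 6 it called 12 members in the AGO1 line.

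Among the THO and TREX members, 8 of 10 rose and 2 fell in AGO1/2 nuclei, and 7 rose and 2 fell in AGO1/2/3 nuclei, where 32.8% and 29% of all genes rose and 34.5% and 29.4% fell. On TPM limma called 6 higher and 1 lower, and 3 and 2. THOC6, a THO subunit (chr16:3024027-3027755, plus strand), had 13.8, 13.6 and 16.4 CPM in WT nuclei, 33.2, 34.6 and 28.8 CPM in AGO1/2 nuclei and 30.3, 30.0 and 30.4 CPM in AGO1/2/3 nuclei. Every knockout library lay above every WT library, and the log2 fold changes were 1.14 ± 0.09 and 1.05 ± 0.09 (adjusted p = 1.6e-08 and 6.4e-08, edgeR). In AGO2 nuclei THOC6 had 23.2, 25.8 and 23.7 CPM (0.73 ± 0.09), whereas it was not called in AGO1 nuclei. ALYREF (chr17:81887835-81891586, minus strand) had 118, 110 and 85.9 CPM in WT, 229, 248 and 177 CPM in AGO1/2 and 156, 171 and 172 CPM in AGO1/2/3 nuclei. It lay above WT in all of these libraries (1.06 ± 0.12 and 0.67 ± 0.12), and in AGO1 nuclei as well (0.63 ± 0.12), where the limma call on TPM was lost at 0.41. THOC7 rose by 0.89 in AGO1/2 and by 0.62 in AGO1/2/3 nuclei, and DDX39A by 0.69 and 0.43, the latter not called on TPM (0.21) or from protein-coding transcripts alone (0.30).

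THOC1 (chr18:214520-268050, minus strand) went down, with 44.6, 48.0 and 42.0 CPM in WT, 29.0, 31.8 and 29.5 CPM in AGO1/2 and 32.9, 32.9 and 28.3 CPM in AGO1/2/3 nuclei. The groups did not overlap (-0.58 ± 0.07 and -0.52 ± 0.07, adjusted p = 4.2e-06 and 2e-05, edgeR), and THOC1 was also lower in AGO2 nuclei (-0.32). Counting protein-coding transcripts alone, the same comparisons gave 0.56 in AGO1/2, 0.48 in AGO1/2/3 and 0.57 in AGO2 nuclei (higher than in WT). Its retained-intron TPM was below every WT library in all 3 lines. DDX39B stood at -0.40 in AGO1/2 and -0.21 in AGO1/2/3 nuclei over all transcripts and at 0.50 and 0.56 over protein-coding ones. The AGO1/2 call was lost with counts scaled by transcript length (-0.03) and on TPM (-0.14). Its AGO1/2/3 call was lost without knockout passage 12 (-0.19) or 14 (-0.18) and without WT passage 28 (-0.17) or 29 (-0.14).

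For the receptor pair, NXF1 had 73.8, 76.1 and 55.9 CPM in WT nuclei and 103, 93.7 and 90.1 CPM in AGO1 nuclei, which lay above WT (0.48 ± 0.09), and in AGO1/2/3 nuclei it differed by 0.07 (adjusted p = 0.53, edgeR). NXT1 rose in AGO1 (0.52) and AGO2 nuclei (0.49). On log2(TPM + 1) the NXF1 value in AGO1 nuclei was 0.27 and the NXT1 values were 0.29 and 0.24, none of them called by limma.

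Among the cap-binding genes NCBP1, the large subunit (chr9:97633668-97673748, plus strand), had 150, 151 and 107 CPM in WT and 94.9, 89.2 and 88.1 CPM in AGO2 nuclei. Every AGO2 library lay below WT (-0.59 ± 0.10, adjusted p = 0.00029, edgeR). NCBP1 was not called in the nuclei of the other 3 lines. In AGO1/2/3 nuclei NCBP3, an alternative cap-binding partner, stood at -0.26 (called) and NCBP2 stood at -0.18, a call that was lost without knockout passage 11 (-0.14) or WT passage 27 (-0.14) or 28 (-0.12).

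All 4 members of the RAN cycle rose in AGO2 and AGO1/2 nuclei, 3 of 4 in AGO1/2/3 nuclei and 2 of 4 in AGO1 nuclei, where 20.1%, 32.8%, 29% and 14.2% of all genes rose. On TPM limma called 0, 4, 1 and 0 of them higher. RAN (chr12:130872037-130877678, plus strand) had 366, 371 and 276 CPM in WT, 585, 635 and 525 CPM in AGO1/2 and 443, 507 and 496 CPM in AGO1/2/3 nuclei. All knockout libraries lay above WT (0.78 ± 0.10 and 0.51 ± 0.10, adjusted p = 3e-06 and 0.00029, edgeR), though the AGO1/2/3 value on TPM was 0.30 and not called by limma. RANBP1 had 110, 109 and 91.5 CPM in WT, 192, 217 and 165 CPM in AGO1/2 and 156, 160 and 161 CPM in AGO1/2/3 nuclei, again without overlap (0.88 ± 0.09 and 0.62 ± 0.09). RCC1 (0.49), RAN (0.45) and RANGAP1 (0.44) rose in AGO2 nuclei, but on TPM limma gave 0.27, 0.17 and 0.19 and called none of them. Of the 3 exportins 1 rose in AGO1 and 1 in AGO2 nuclei, and none was called in AGO1/2 or AGO1/2/3 nuclei, where XPO1 stood at 0.10 in the latter (adjusted p = 0.48, edgeR).

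Of the pore proteins, TPR (chr1:186311652-186375693, minus strand) had 989, 1032 and 864 CPM in WT nuclei and 655, 604 and 720 CPM in AGO1/2 nuclei, all below WT (-0.54 ± 0.08, adjusted p = 1.5e-05, edgeR). Its AGO1/2/3 value stood at -0.14 (adjusted p = 0.14, edgeR), and was called at -0.19 without WT passage 29 and at -0.51 on TPM. NUP210 had 198, 175 and 228 CPM in WT and 337, 317 and 308 CPM in AGO1/2/3 nuclei, all above WT (0.68 ± 0.10). NUP35, which joins the inner ring to the membrane, had 47.2, 50.9 and 36.9 CPM in WT and 27.6, 30.6 and 27.0 CPM in AGO1/2/3 nuclei, all below WT (-0.66 ± 0.13). Its smaller falls in AGO2 (-0.38) and AGO1/2 nuclei (-0.41) were lost without WT passage 27 (-0.32 and -0.34) or 28 (-0.26 and -0.29), and that in AGO2 nuclei also without AGO2 passage 9 (-0.35) or 10 (-0.32). NUP188 rose in AGO1 (0.43) and AGO1/2/3 nuclei (0.36), but on TPM it stood at 0.03 and -0.06.

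None of the 6 members of the Y complex was called in AGO1/2/3 or AGO2 nuclei, where NUP107 stood at -0.08 in the former (called at -0.21 without WT passage 29 and at -0.38 on TPM). NUP98, a channel protein that binds export factors, stood at 0.19 in AGO1/2/3 nuclei (adjusted p = 0.051, edgeR), was called without WT passage 27 (0.30) or 28 (0.24), and stood at -0.39 on TPM. NUP214 stood at -0.24 in the same comparison (adjusted p = 0.048, edgeR), a call lost without any library of that line (-0.18 to -0.26) or without WT passage 27 (-0.10) or 28 (-0.17). NUP88 rose by 0.29, but was at 0.00 on TPM.

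Of the 4 members grouped under cytoplasmic release (GLE1, DDX19A, DDX19B and, listed with them, RAE1), all 4 rose in AGO1 nuclei and 3 in each of the other lines, where 14.2% (AGO1), 20.1% (AGO2), 32.8% (AGO1/2) and 29% (AGO1/2/3) of all genes rose. On TPM limma called 0, 0, 2 and 1 of them higher. GLE1, the activator of the DDX19 helicases, had 44.3, 46.5 and 40.8 CPM in WT and 58.6, 56.8 and 56.7 CPM in AGO2 nuclei, all above WT (0.39 ± 0.07, adjusted p = 0.0003, edgeR), with 0.13 on TPM, not called by limma. DDX19B rose in AGO1/2/3 nuclei (0.48 ± 0.09) and its paralogue DDX19A did not pass the test (0.05). RAE1, which docks at NUP98, stood at 0.21 there (adjusted p = 0.045, edgeR), a call lost without knockout passage 12 (0.21) or 14 (0.19) or WT passage 29 (0.12).

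**Figure D4:**
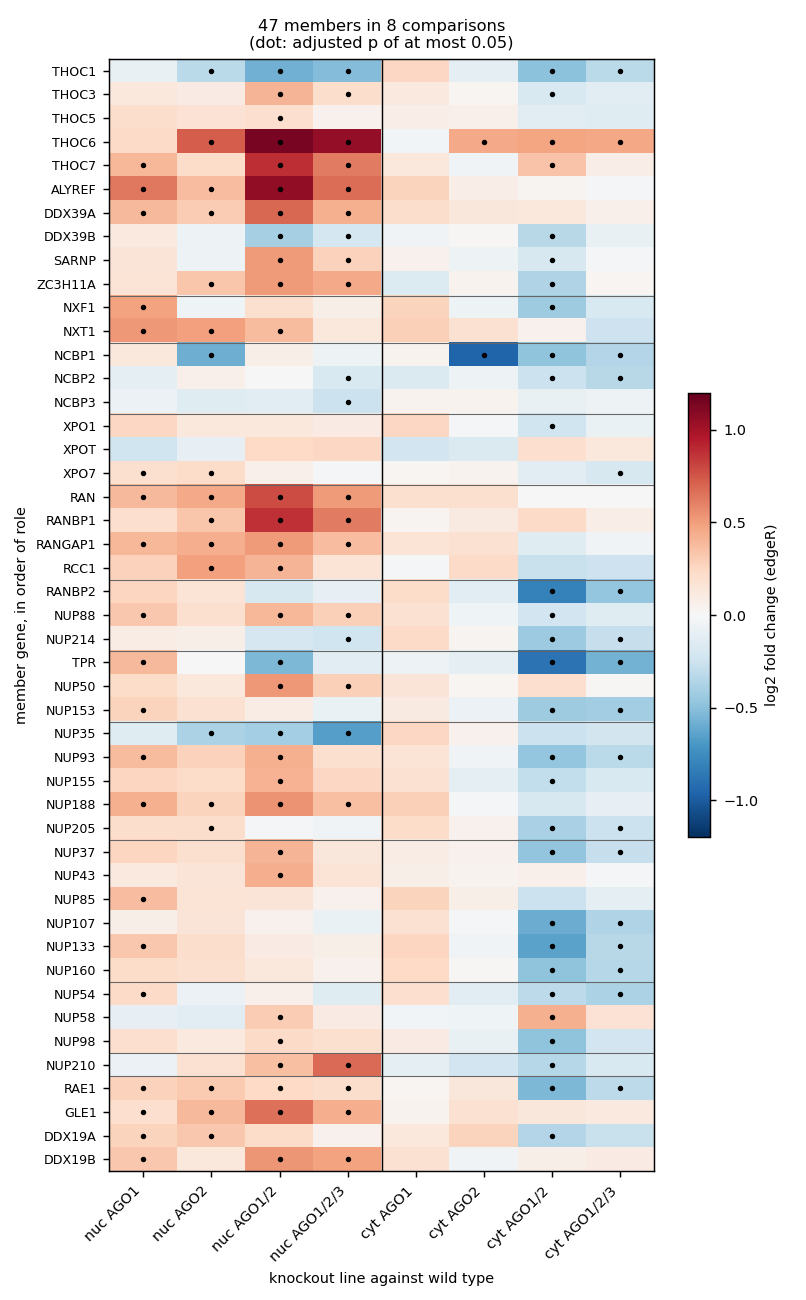
Log2 fold change against WT (colour, edgeR) of the 47 members (rows, in order of role, with lines between roles) in the nuclear and cytoplasmic comparisons of the 4 knockout lines (columns), with a dot where the adjusted p was at most 0.05. The nuclear AGO1/2 column is mostly red (26 dots higher, 4 lower) and its cytoplasmic counterpart mostly blue (3 higher, 26 lower), while the cytoplasmic AGO1 column has no dot.

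In cytoplasmic RNA the AGO1/2 line showed the opposite balance. There 3 members (6.38%) rose and 26 (55.3%) fell, where 23.8% of all genes rose and 25.2% fell, and the member median was -0.26 against -0.01 over all genes. In AGO1/2/3 knockout cells 1 rose and 16 fell (18.6% and 20% of all genes; member median -0.18). In AGO2 knockout cells 1 rose and 1 fell (7.03% and 8.91%), and in AGO1 knockout cells none rose or fell by edgeR (4.19% and 8.03%), with 13 members at an unadjusted p under 0.05 and 2 called higher by DESeq2. On TPM limma called 0 higher and 2 lower in the AGO1 line (1.35% and 17.1% of all genes), 0 and 11 in the AGO2 line (1.73% and 27.2%), 0 and 39 in the AGO1/2 line (7.7% and 49.9%) and 0 and 32 in the AGO1/2/3 line (8.11% and 37.8%). Without WT passage 29 edgeR gave 1 higher and 1 lower in the AGO2 line, 4 and 31 in the AGO1/2 line and 3 and 25 in the AGO1/2/3 line. The AGO1/2/3 count fell to 7 without WT passage 27, to 8 without WT passage 28 and to 8 without knockout passage 14. Without WT passage 27 the AGO1 line had 3 calls, without WT passage 29 it had 2, and without AGO2 passage 8 the AGO2 line had 1.

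All 3 members of the cytoplasmic filaments fell in AGO1/2 cytoplasm, as did 4 of the 6 members of the Y complex and 2 of the 3 of the nuclear basket, while none of the 4 members of the RAN cycle was called (3 lower by limma on TPM). RANBP2 (chr2:108719482-108785810, plus strand) had 276, 302 and 259 CPM in WT cytoplasm, 158, 141 and 177 CPM in AGO1/2 and 194, 225 and 190 CPM in AGO1/2/3 cytoplasm. All knockout libraries lay below WT (-0.81 ± 0.09 and -0.46 ± 0.09, adjusted p = 4.4e-06 and 0.0011, edgeR). TPR had 94.7, 119 and 124 CPM in WT, 62.3, 57.8 and 61.8 CPM in AGO1/2 and 74.5, 82.2 and 71.5 CPM in AGO1/2/3 cytoplasm, again without overlap (-0.89 ± 0.14 and -0.57 ± 0.14). The Y complex members NUP133 and NUP107 fell by 0.64 and 0.60 in AGO1/2 cytoplasm, RAE1 by 0.54 and THOC1 by 0.49, each with all knockout libraries below WT.

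In AGO1/2/3 cytoplasm the basket protein NUP153 stood at -0.42 and NUP54, of the central channel, at -0.38, both called, with the NUP153 libraries overlapping those of WT. NUP107 (-0.36), NCBP1 (-0.35) and RAE1 (-0.31) were called as well, but each lost its call without knockout passage 14 (-0.26, -0.25 and -0.24), WT passage 27 (-0.30, -0.32 and -0.23) or WT passage 28 (-0.29, -0.24 and -0.29). NCBP2 fell in all 3 libraries below WT (-0.33 ± 0.06, adjusted p = 0.00097, edgeR). RAN, at 614, 608 and 558 CPM against 662, 624 and 492 CPM in WT, was not called (0.00), nor were ALYREF (-0.02), DDX39A (0.06), DDX39B (-0.09) or NUP188 (-0.10). DDX39B (-0.31) and NUP188 (-0.35) were called lower by limma on TPM. DDX19A (-0.27), NXF1 (-0.18), XPO1 (-0.08), NUP98 (-0.23) and DDX19B (0.10) were not called, but passed the test without WT passage 29, at -0.41, -0.30, -0.19, -0.32 and 0.19. The first 4 of these were called lower by limma on TPM, at -0.45, -0.41, -0.31 and -0.42, and DESeq2 called NUP98 (-0.23). NUP98 passed also without knockout passage 12 (-0.30).

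THOC6 went against this trend. It had 24.0, 23.1 and 28.5 CPM in WT cytoplasm, 37.9, 32.3 and 33.2 CPM in AGO2, 36.1, 36.4 and 32.4 CPM in AGO1/2 and 37.5, 35.6 and 30.9 CPM in AGO1/2/3 cytoplasm, all above WT (0.45, 0.47 and 0.46, each ± 0.10). On TPM limma gave 0.21, 0.05 and 0.19 and no call, and the AGO2 call was lost without AGO2 passage 8 (0.38). NUP58, of the central channel, and THOC7 were the other members called higher in AGO1/2 cytoplasm, at 0.43 and 0.34 by edgeR and at 0.01 and -0.07 on TPM. NCBP1 was the member with the lowest fold change in AGO2 cytoplasm: it had 106, 116 and 81.1 CPM in WT and 53.7, 49.8 and 52.3 CPM in AGO2 knockout cells (-0.96 ± 0.12, adjusted p = 4.8e-05, edgeR). In AGO2 knockout cells NCBP1 RNA was thus lower in both fractions, with every library below WT.

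**Figure D5:**
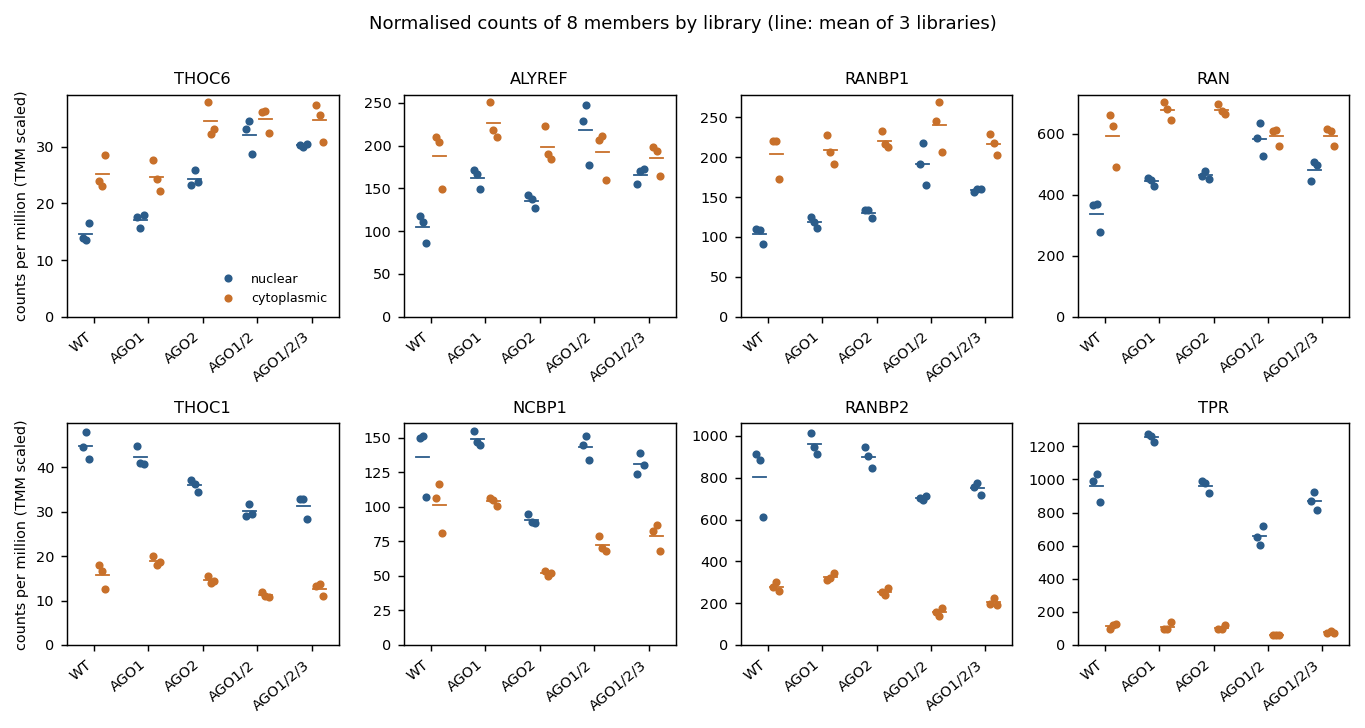
TMM-scaled CPM (y axis, from 0, each fraction scaled on its own so that heights are compared within a fraction) of 8 members in each library, by genotype (x axis), with lines for the mean of 3 libraries. Nuclear THOC6 rises from 13.6 to 16.4 CPM in WT to 28.8 to 34.6 CPM in the AGO1/2 line, NCBP1 is lowest in the AGO2 line in both fractions, and cytoplasmic RANBP2 is lowest in the AGO1/2 line.

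Whether the knockout changed the 2 fractions differently was tested as an interaction of fraction and genotype over the 12 libraries of WT and 1 knockout line. In the AGO1/2 line the nucleus gained relative to the cytoplasm for 18 members and for none the reverse (13.5% and 13.1% of all genes), with a member median of 0.47 against -0.04 over all genes. In the AGO1/2/3 line 6 members gained and none the reverse (10.3% and 6.66%), with medians of 0.32 and 0.04. At an unadjusted p under 0.05 there were 26 and 18 members in either direction, and DESeq2 called 17 higher and 1 lower in the AGO1/2 line and 5 and 0 in the AGO1/2/3 line. With the passage as a block the counts were 37 and 2 in the AGO1/2 line (26.1% and 20.6% of all genes) and 28 and 2 in the AGO1/2/3 line (21.9% and 11.8%). By limma on TPM there were 32 and 0 in the AGO1/2 line (31.2% and 15.3%) and 2 and 0 in the AGO1/2/3 line (9.66% and 14.6%). Protein-coding transcripts alone left 7 and 0 in the AGO1/2 line and 3 and 1 in the AGO1/2/3 line, and RLE size factors left 2 and 0 in the latter. Without both WT libraries of passage 29 they were 29 and 0, and 24 and 1. In the AGO1/2/3 line the count went from 6 to 24 without the cytoplasmic WT library of passage 29 and to 1 without the nuclear WT library of passage 27 or 28. It was 4, with 2 in each direction, without the nuclear WT library of passage 29, 3 without knockout passage 12 in either fraction and 2 without cytoplasmic knockout passage 14. GAPDH moved with these members, at 0.99 and 0.65 in the AGO1/2 and AGO1/2/3 interactions, and MALAT1 the other way, at -1.72 and -1.29, and their part in the result was not tested.

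The 18 members of the AGO1/2 line came from most roles: 5 of 10 THO and TREX members, 3 of 5 of the inner ring, 3 of 6 of the Y complex and 3 of 4 of the cytoplasmic release group. No cap-binding member, exportin, export receptor or basket protein was among them, but with passage as a block 2, 1, 1 and 2 members of these roles were called. ALYREF had the highest value (0.93 ± 0.25, adjusted p = 0.016, edgeR), followed by NUP93 (0.80 ± 0.20), a scaffold protein of the inner ring, NUP37 (0.79 ± 0.19), of the Y complex, and ZC3H11A (0.77 ± 0.12), a zinc finger protein associated with TREX. NUP93 had 119, 110 and 82.6 CPM in WT and 142, 154 and 124 CPM in AGO1/2 nuclei, but 118, 110 and 93.0 CPM in WT and 81.8, 77.4 and 73.9 CPM in AGO1/2 cytoplasm. ZC3H11A had at most 135 CPM in WT nuclei and at least 176 CPM in AGO1/2 nuclei, against at least 105 CPM in WT and at most 94 CPM in AGO1/2 cytoplasm. Neither gene's groups overlapped in either fraction, and the direction was opposite in the 2 fractions. Counting protein-coding transcripts alone, the interaction kept its sign but not its call for ALYREF (0.71), NUP93 (0.58) and ZC3H11A (0.23).

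As a wider frame, 48 other genes of nuclear transport were counted in the same fits. In nuclear RNA 17 rose and 1 fell in the AGO1 line, 18 and 3 in the AGO2 line, 30 and 5 in the AGO1/2 line and 19 and 6 in the AGO1/2/3 line, where 14.2% and 15.4%, 20.1% and 19.8%, 32.8% and 34.5%, and 29% and 29.4% of all genes rose and fell. On TPM limma called 1 and 3, 0 and 7, 22 and 7, and 4 and 14, so that their balance too reversed in all but the AGO1/2 line. In the cytoplasm edgeR gave 3 and 0, 1 and 0, 5 and 20, and 2 and 11 in the same order, and limma on TPM 0 and 2, 0 and 14, 0 and 40, and 0 and 28. All genes tested by edgeR stood at 4.19% and 8.03%, 7.03% and 8.91%, 23.8% and 25.2%, and 18.6% and 20%. In AGO1/2/3 nuclei CETN2, a centrin bound to the export complex TREX-2, rose by 1.11, AAAS by 0.65 and SEC13, of the Y complex, by 0.64, while the exon junction protein EIF4A3 stood at -0.73, the importin KPNA5 at -0.59 and ENY2, a further TREX-2 protein, at -0.56. The EIF4A3 and ENY2 calls were lost with counts scaled by transcript length (-0.54 and -0.19). There were rises in AGO1/2/3 cytoplasm of CETN2 (0.52) and the import receptor TNPO2 (0.35), with 0.25 and 0.10 and no call on TPM, and ENY2 (-0.61), NUP42 (-0.48) and XPO5 (-0.41), the exportin of microRNA precursors, fell.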

How the data were processed

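Per the labels and the study's methods, libraries were strand-specific Illumina preparations of total RNA from nuclear and cytoplasmic fractions. The authors quantified them with Salmon against an hg38 annotation and deposited, per transcript, an estimated count (not normalized) and TPM (a transcript level corrected for length and depth). The submitters' processing notes name STAR 2.5.3a and Salmon 0.11.0, the methods other versions. Here estimated counts of 200401 transcripts were summed by gene with GENCODE 44 (196040 matched by identifier without version) and rounded, and TPM was summed likewise. Unmatched transcripts held 2.23% to 4.01% of the reads per library. Genes passing filterByExpr (minimum count 10) were tested across the whole table with edgeR 4.0.16 (TMM, quasi-likelihood test, all 5 genotypes of a fraction in 1 fit) in R 4.3.3, with Benjamini-Hochberg adjustment and a threshold of 0.05. Fractions were compared within a genotype, and interactions over 12 libraries. Retained-intron ratios, log2 of retained-intron over protein-coding TPM (pseudocount 0.1, mean summed TPM at least 1), were tested with limma 3.58.1. Alternatives were DESeq2 1.42.0, limma on log2(TPM + 1) or log2(TPM + 0.1), other filters, scalings and transcript sets, and leaving out each library. Scripts were tested on simulated data.

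WT libraries of the 2 fractions with the same passage number in the labels deviated together (correlations 0.334, 0.313 and 0.664). The main fits of the fractions and of the interactions nevertheless had no passage term and ignored this pairing. Passage as a block was an alternative fit. In no knockout line did every pair exceed 0.1. The replicate pairs of each group differed by more than counting noise (lowest chi-square per degree of freedom 4.83). Counting error sets the precision of low members, and the lowest count was 141. With 3 libraries against 3 no exact permutation test could go below 0.1, so p-values rest on the fits across all genes. The 47 members and the gene lists were chosen with earlier results of these data known. Genes named are up to 6 called members per direction with the largest change in each knockout comparison. In the AGO1/2/3 comparisons NXF1, XPO1, the DDX19 and DDX39 paralogues and the most abundant member of each role were added. Up to 4 per direction are named for fractions, interactions and retained-intron ratios (with NXF1 and DDX39B), and up to 3 other transport genes per direction for the AGO1/2/3 line. NUP214, NUP88 (between WT fractions) and the single transcripts were chosen after their values were seen. The 8 eCLIP samples were not used.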

Additional observations from a re-analysis of the deposited data

Results flagged for a closer look

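A difference between the fractions in the response to the knockout, tested as an interaction, was found by edgeR's quasi-likelihood test for the following named members. In the AGO1/2 line the log2 change in the nucleus exceeded that in the cytoplasm by 0.93 for ALYREF, by 0.80 for NUP93, by 0.79 for NUP37 and by 0.77 for ZC3H11A. In the AGO1/2/3 line it did so by 0.84 for NUP210, by 0.66 for ALYREF, by 0.57 for THOC6 and by 0.51 for RANBP1. The ALYREF and RANBP1 calls of the AGO1/2/3 line were lost in most fits that left out a single library (0.45 to 0.74 and 0.35 to 0.53), and that of THOC6 without the nuclear WT library of passage 27 (0.48) or 28 (0.47).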

How the results depend on the processing

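The cause of none of the changes below was tested. Shares of all genes were given above for the main fits, for limma on log2(TPM + 1), and for passage as a block in WT cells and in the interactions. Counts of members under any other setting stand without such a share, and say nothing on whether all genes moved likewise. On TPM (limma, either pseudocount), the balance of called members reversed in nuclear RNA of the AGO1 (7 called), AGO2 (9) and AGO1/2/3 lines (22), and between the fractions of WT (30), AGO1 (35), AGO2 (40) and AGO1/2/3 cells (40). The last also reversed with a mean count of at least 50 (37 called, 21 higher and 16 lower) and with protein-coding transcripts alone (40, with 21 and 19). On TPM, cytoplasmic calls numbered 2 in the AGO1, 11 in the AGO2 and 32 or 33 in the AGO1/2/3 line, all lower, and interaction calls 32 or 33 in the AGO1/2 and 2 in the AGO1/2/3 line, all higher. In AGO1 cytoplasm DESeq2 called 2, and length scaling, no filter and protein-coding transcripts 1 each. Fitting only the 2 groups compared left 5 calls in AGO1/2/3 cytoplasm and 12 in AGO1 nuclei. Protein-coding transcripts left 7 calls in the AGO1/2 interaction. RLE size factors left 2 in the AGO1/2/3 interaction, length scaling 3 and a mean count of at least 50 also 3.

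With passage as a replicate block, WT fractions gave 42 calls and the interactions 39 (AGO1/2) and 30 (AGO1/2/3). Without both WT libraries of passage 29, an alternative chosen after seeing the data, they gave 42, 29 and 25. In the knockout lines, where passages were not shown to be pairs, the block gave 14 higher and 26 lower (AGO1), 18 and 26 (AGO2), 25 and 18 (AGO1/2) and 18 and 22 (AGO1/2/3). Leaving out each library in turn gave 0 to 3 calls in AGO1, 1 to 3 in AGO2 and 7 to 28 in AGO1/2/3 cytoplasm, 12 to 28 in AGO1 nuclei, and 12 to 27 and 1 to 24 in the AGO1/2 and AGO1/2/3 interactions.

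With protein-coding transcripts alone, THOC1 turned to 0.56, 0.48 and 0.57 in AGO1/2, AGO1/2/3 and AGO2 nuclei and, nucleus over cytoplasm, to -0.65 (WT), -0.18 (AGO1) and -0.0 (AGO2). DDX39B turned to 0.5 and 0.56 in AGO1/2 and AGO1/2/3 nuclei (0.07 in the latter with length scaling) and, nucleus over cytoplasm, to -0.95 (WT), -0.5 (AGO1), -0.62 (AGO2), -0.13 (AGO1/2) and -0.35 (AGO1/2/3). On TPM the sign turned for THOC7 in AGO1/2 cytoplasm (-0.07), for NUP188 (-0.07 or -0.06) and NUP98 (-0.39) in AGO1/2/3 nuclei and, nucleus over cytoplasm, for RANBP1 in AGO1/2 cells (0.18) and ALYREF in AGO1/2 (0.7 or 0.69) and AGO1/2/3 cells (0.01). Of 2310 alternative values of 157 named results, 2090 kept direction and call, 154 lost the call, 40 gained it and 26 reversed.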
